A study of Gallus gallus with 100 samples.

Results

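The folliculin complex was followed through its 3 genes, FNIP1, FNIP2 and FLCN, among 18685 gene symbols listed in the pituitary tables of male Ross 708 broiler chickens. The genes were found by symbol, and the set was chosen because FNIP1 was higher in heat-stressed glands at day 26 post-hatch. FNIP1 and FNIP2 in heat against control at day 26 are therefore described here without a test, as is FNIP1 at day 26 against other days. FNIP2 in control glands was tested between days, day 26 included. FLCN encodes folliculin, and FNIP1 and FNIP2 encode the folliculin-interacting proteins, which bind folliculin in place of one another. In mammalian cells the complex sits on the lysosome when amino acids are scarce, and it acts as a GTPase-activating protein for RagC and RagD, the small GTPases through which mTORC1 is brought to its substrates TFEB and TFE3. Both FNIP proteins also bind the energy sensor AMPK and, in human cells, act as cochaperones of HSP90.

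Whole pituitary glands were taken from single birds kept in 2 houses, and each gland gave 1 polyA RNA library. The heat house was warmed daily from 25 °C to about 35 to 37 °C from day 21 on, and the control house stayed at 25 °C. Heat birds with values numbered 13 at day 22 (8 hours of heat), 5 at day 26 (2 hours), 6 at day 32 (4 hours), 5 at day 40 (labelled only as week) and 17 at day 42 (3 weeks of daily heat). The hours named for days 26 and 32 do not count any warming on earlier days, which cannot be told apart from them here. Control birds numbered 15 at day 21, before any heat, then 10 at day 22, 6 at day 26, 6 at day 32, 5 at day 40 and 10 at day 42. All birds were males of 1 broiler cross, and each treatment was 1 house, so that house and heat cannot be told apart. Libraries are named below by treatment, day and library number.

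Levels are FPKM, fragment counts scaled to gene length and to the mapped reads of the library, so that they can be set side by side between genes. A gland is a mixture of cells, and fewer cells of a type and less RNA per cell cannot be told apart in these values. The FPKM of a library summed to between 226025 and 612128, apart from heat library 1307 of day 32, which summed to 796179. The anterior lobe list (hormone genes such as GH, PRL and POMC and their lineage factors) summed to at most 1728 FPKM in any library of days 21 to 40 and to at least 92140 FPKM in every library of day 42, while myelin genes summed to between 30200 and 72210 FPKM at days 26 and 32 and to at most 97.3 FPKM at day 42. The glands of days 21 to 40 therefore carried little of the markers that define the anterior pituitary. Muscle, fat and connective tissue genes summed to between 81.4 and 145 FPKM in day 26 heat libraries and to between 65.4 and 1402 FPKM in day 26 control libraries. At day 32, where more genes of this list were measured, they summed to between 1805 and 5247 FPKM in heat libraries and to between 480 and 5819 FPKM in control libraries. The part of these differences in the results was not tested.

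The tables did not list the 3 genes alike. FNIP1 stood in the tables of days 21, 22, 26 and 32, FNIP2 in all 6 tables, and FLCN in the day 32 table, and the remaining combinations were not analysed here. All members that were listed passed the minimum mean of 1 FPKM. On the galGal4 build FNIP1 (Entrez 427642) lay on chromosome 13, FNIP2 (Entrez 422417) on chromosome 4 from 21411957 to 21461515 in the day 26 table, and FLCN (Entrez 416503) on chromosome 14 from 4719682 to 4734213. The interval given for FNIP1 differed between tables. It ran from 15910045 to 15968275 at day 26, over 58231 bases, and from 15910083 to 15949801 at day 22, over 39719 bases. The intervals of days 21 and 32 covered 60126 and 41799 bases. Tables were made day by day, so a difference in FPKM between days cannot be told apart from a difference between tables, and this holds for each level set across days below.

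FNIP1 stood higher in the heat house at day 26. The 5 heat libraries had 10.1 (library 1312), 13.5 (1313), 10.2 (1431), 10.8 (1510) and 12.1 FPKM (1511). The 6 control libraries had 2.26 (845), 3.16 (1078), 1.96 (847), 1.84 (1512), 2.94 (1513) and 2.33 FPKM (1514). Each heat library stood above each control library, and the nearest pair of libraries lay 10.1 against 3.16 FPKM apart. FNIP1 averaged 11.3 ± 1.42 FPKM in heat glands (SD, n = 5) and 2.41 ± 0.53 FPKM in control glands (SD, n = 6), a ratio of means of 4.69 and a difference of 1.86 on the log2(FPKM + 1) scale, which understates the change of low genes. In this comparison 53 of 9079 genes (0.584%) had an adjusted p under 0.05, and all heat libraries stood above all control libraries in 2.60% of genes. These shares are given for scale only, since FNIP1 was picked on this contrast. Within the libraries numbered 1500 and above, the heat libraries had 10.8 and 12.1 FPKM and the 3 control libraries had 1.84 to 2.94 FPKM.

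FNIP2, the paralog of FNIP1, did not show this separation at day 26. It had 9.82, 7.23, 4.42, 9.59 and 4.86 FPKM in the heat libraries, in the order named above for FNIP1, and 6.14, 3.46, 5.50, 4.89, 7.17 and 6.41 FPKM in the control libraries. The groups overlapped, and the means were 7.18 ± 2.54 FPKM in heat glands (SD, n = 5) and 5.59 ± 1.31 FPKM in control glands (SD, n = 6). The ratio of the partners carries the FNIP1 values on which the gene was picked and is given as a description. FNIP1 stood above FNIP2 in 5 of 5 heat libraries, with a median FNIP1 to FNIP2 ratio of 1.86, and in 0 of 6 control libraries, with a median ratio of 0.372.

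**Figure D1:**
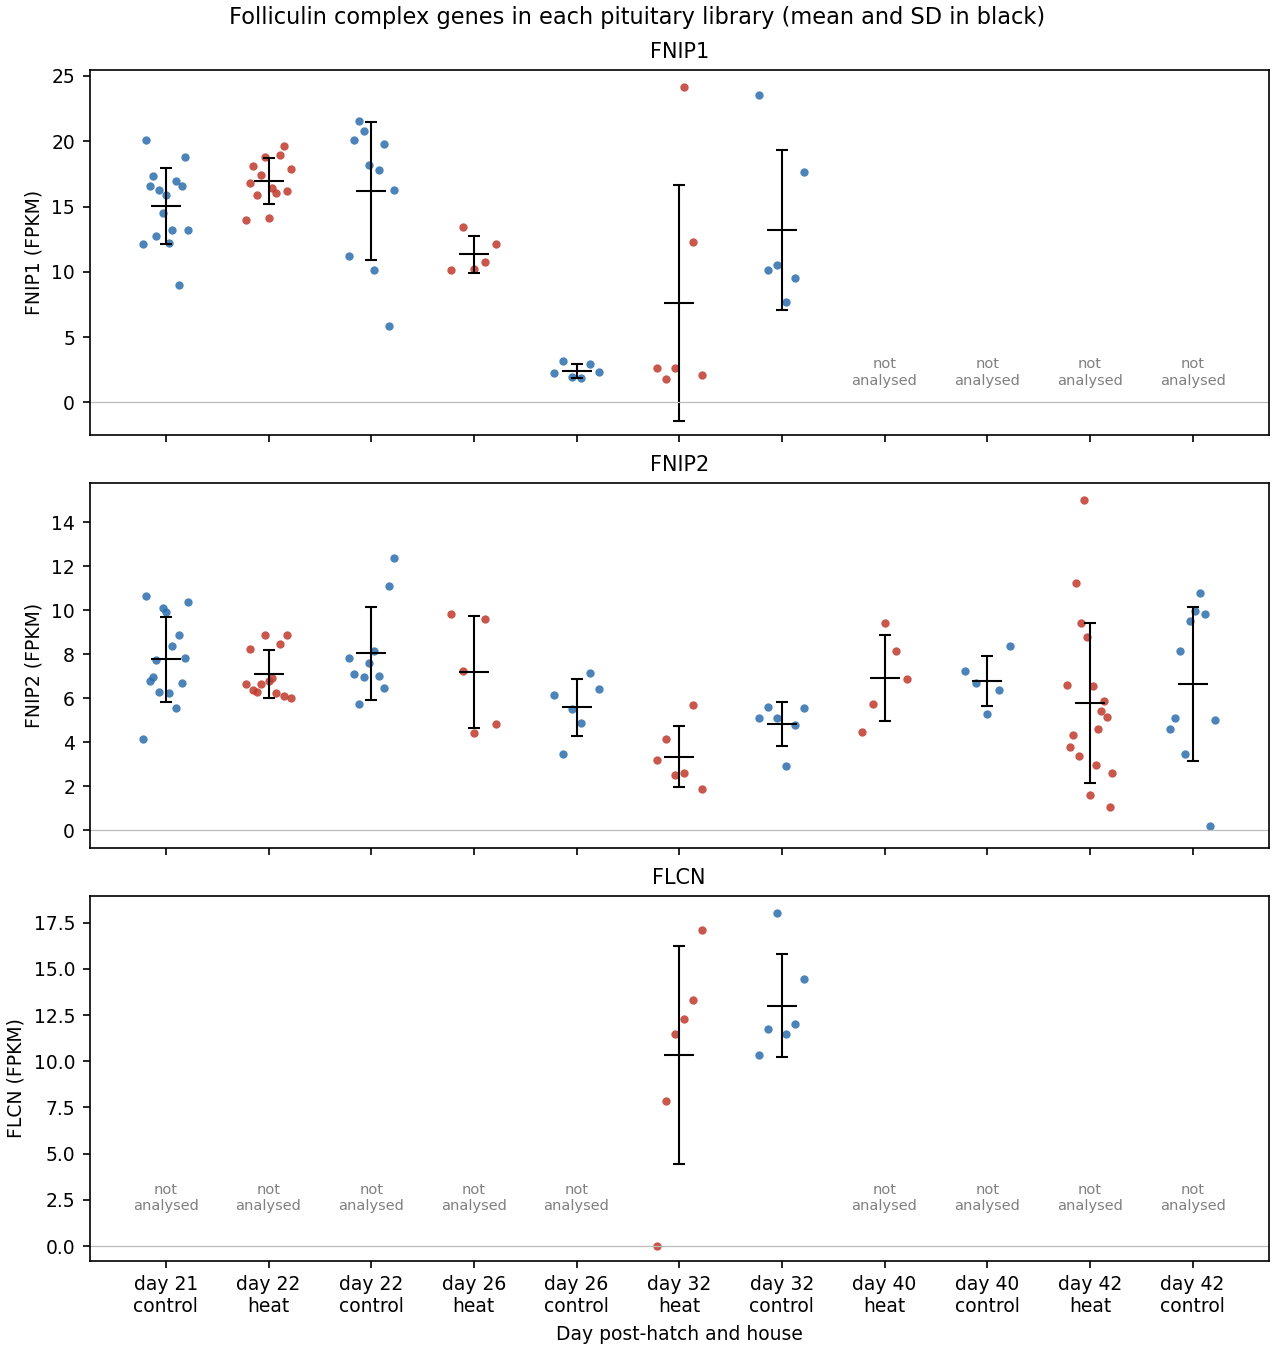
FPKM of FNIP1, FNIP2 and FLCN (vertical axes) in each library, by day post-hatch and house (horizontal axis), with heat in red, control in blue, and the mean and SD in black. FNIP1 lay between 1.84 and 3.16 FPKM in day 26 control glands and at 10.1 FPKM or more in day 26 heat glands, while FNIP2 overlapped between the houses on each day.

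The FNIP1 levels of the other days are set beside those of day 26 as a description. Control glands had 9.02 to 20.1 FPKM of FNIP1 at day 21 (median 15.9, n = 15), 5.83 to 21.5 FPKM at day 22 (median 18.0, n = 10) and 7.67 to 23.6 FPKM at day 32 (median 10.3, n = 6). All 6 control libraries of day 26 lay below every control library of days 22 and 32, as did 10.1% of genes against day 22 and 3.52% against day 32. The day 26 control mean was 0.149 times the day 22 control mean, and the day 32 control mean was 5.46 times the day 26 control mean. These contrasts share the control libraries on which FNIP1 was picked and were not tested. The heat glands of day 26 had 10.1 to 13.5 FPKM of FNIP1, within the lower part of the range of day 21 and day 22 control glands. Each of these heat libraries lay below the medians of both control groups. By group mean, FNIP1 ran in descending order from day 22 heat (16.9 FPKM) through day 22 control (16.2), day 21 control (15.0), day 32 control (13.2), day 26 heat (11.3) and day 32 heat (7.61) to day 26 control (2.41). Each step down to day 32 heat was smaller than the larger SD of the 2 groups beside it. So was the last step, where the SD of day 32 heat glands was 9.05 FPKM. These SDs describe single birds and are not errors of the means. The day 26 control libraries lay below every library of the groups other than day 32 heat.

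The neighbours of FNIP1 on chromosome 13 did not share its separation at day 26. RAPGEF6, a guanine nucleotide exchange factor for Rap GTPases that ended 5842 bases before FNIP1, averaged 7.40 ± 1.62 FPKM in heat glands (SD, n = 5) and 6.0 ± 1.03 FPKM in control glands (SD, n = 6). LOC771537, which began 764 bases after the FNIP1 interval, averaged 0.696 ± 0.107 FPKM in heat glands and 0.852 ± 0.283 FPKM in control glands. Of the genes beyond it, ACSL6, a long-chain acyl-CoA synthetase, had 5.72 to 17.3 FPKM in heat glands and 2.31 to 12.9 FPKM in control glands. In all 3 neighbours the libraries of the houses overlapped.

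**Figure D2:**
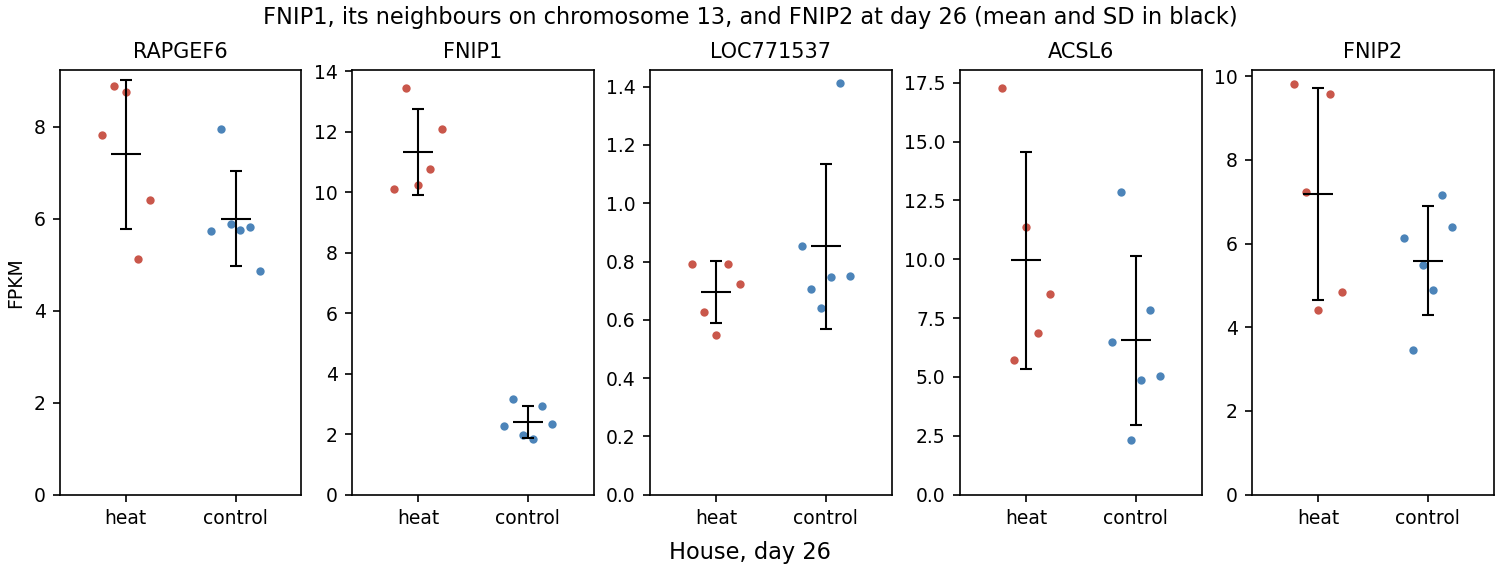
FPKM (vertical axes, each with its own scale from 0) at day 26 in heat (red, n = 5) and control (blue, n = 6) libraries for FNIP1, for RAPGEF6, LOC771537 and ACSL6 beside it on chromosome 13, and for FNIP2, with the mean and SD in black. FNIP1 was the gene of the 5 in which the houses did not overlap.

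At day 22, after 8 hours of heat, no difference of a member between the houses was detected. FNIP1 had 14.0 to 19.6 FPKM in heat glands (median 16.8, n = 13) and 5.83 to 21.5 FPKM in control glands (median 18.0, n = 10). The lowest control library, 1552, stood at 5.83 FPKM, and 2 more control libraries, 1432 and 1437, had 10.2 and 11.2 FPKM, so all 3 lay below every heat library. The log2 difference was 0.14 (95% interval -0.18 to 0.46, adjusted p = 0.991), and without library 1552 it was 0.0007. In libraries numbered 1500 and above, the mean was 17.5 FPKM in 11 heat glands and 17.6 FPKM in 8 control glands. FNIP2 had 6.02 to 8.88 FPKM in heat glands (median 6.65) and 5.73 to 12.4 FPKM in control glands (median 7.37), with a log2 difference of -0.14 (95% interval -0.35 to 0.08, adjusted p = 0.991), and -0.09 without library 1552. In this comparison 0.133% of 8256 genes were called, and neither member was among them. FNIP1 stood above FNIP2 in 13 of 13 heat libraries and 9 of 10 control libraries.

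At day 32, labelled as 4 hours of heat, FNIP1 spread most within a group. Heat glands had 2.66 (library 1276), 1.79 (1303), 2.66 (1304), 24.2 (1305), 12.3 (1306) and 2.09 FPKM (1307), and control glands had 23.6 (1308), 10.2 (1309), 10.5 (1310), 7.67 (1314), 9.51 (1277) and 17.6 FPKM (1315). Of the heat libraries 4 lay below every control library, at a level that overlapped the day 26 control glands, and the other 2 lay within or above the control range. Relative depth, against the deepest library of the day, was 0.829 (1276), 0.321 (1303), 0.507 (1304) and 0.747 (1307) in the low libraries. It was 0.871 in library 1305, 0.986 in library 1306 and 0.707 to 1 in control libraries. Library 1276 had 9041 genes at 1 FPKM or more, the fewest of day 32, and library 1307 had the largest FPKM sum. The part of these differences in the split of FNIP1 was not tested. The log2 difference was -1.19 (95% interval -2.28 to -0.09), with an unadjusted p of 0.0357 in limma and an adjusted p of 0.746, so FNIP1 was not called. Without heat library 1305 it was -1.61, and without heat library 1303 it was -0.97. In this comparison limma called 0 of 10282 genes (0%), with 609 genes at an unadjusted p under 0.05. The Wilcoxon rank-sum test also called 0 genes, but in groups this small it cannot reach low p-values, so nothing is read from that count.

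FNIP2 also had a lower mean in heat glands at day 32, within the same limits. FLCN had a lower mean there largely through 1 library listed at 0, and its median was 11.9 FPKM in both houses. FNIP2 had 3.18, 4.14, 2.53, 2.62, 5.72 and 1.89 FPKM in the heat libraries, in the order given for FNIP1, and 5.10, 5.60, 5.10, 2.92, 4.81 and 5.58 FPKM in the control libraries. Heat libraries 1276, 1303 and 1306 lay above control library 1314, so the houses overlapped. The log2 difference of FNIP2 was -0.46 (95% interval -0.92 to -0.01, adjusted p = 0.746 in limma), against a median of -0.17 over all genes tested. FLCN had 0, 7.83, 11.5, 12.3, 13.3 and 17.1 FPKM in the heat libraries and 10.3, 11.7, 18.0, 11.5, 12.0 and 14.5 FPKM in the control libraries, in the same order. Apart from library 1276, where FLCN is listed at 0, the houses overlapped. The log2 difference of FLCN was -0.70 (95% interval -1.89 to 0.49, adjusted p = 0.760 in limma), beside the same median of -0.17 over all genes. Without library 1276 the difference of FLCN was -0.08. Each of the 12 libraries of day 32 lists between 1 and 8 genes at 0 that have at least 5 FPKM in the other 11. Library 1276 lists 2 of 5085 genes in this way, with FLCN among them. Whether the 0 of FLCN is a failed estimate was not tested. The genes beside FLCN were not at 0 in library 1276. COPS3, a subunit of the COP9 signalosome, had 9.01 FPKM there, its lowest value of day 32. The other heat libraries had 13.5 FPKM or more of COPS3, and the control libraries had 12.4 FPKM or more. MPRIP, a myosin phosphatase partner, had 14.6 FPKM in library 1276. At day 22, where FLCN was not analysed here, the interval of COPS3 took in the whole FLCN interval of day 32, and that of MPRIP reached into it.

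At days 40 and 42 the FNIP2 levels could not be told apart between the houses. At day 40, heat glands had 4.46, 5.76, 9.41, 8.14 and 6.89 FPKM, and control glands had 7.25, 6.71, 5.28, 6.37 and 8.38 FPKM. The range of the heat glands took in that of the control glands, and the log2 difference was 0.00 (95% interval -0.41 to 0.41, adjusted p = 1.000 in limma). At day 42, after 3 weeks of daily heat, FNIP2 ran from 1.05 to 15.0 FPKM in heat glands (median 5.17, n = 17) and from 0.19 to 10.8 FPKM in control glands (median 6.62, n = 10), with a log2 difference of -0.14 (95% interval -0.81 to 0.53, adjusted p = 0.999). Without control library 1012, which gave the lowest control value, the difference was -0.41. Within ranges of library numbers the day 42 means went opposite ways. In libraries below 1100 they were 6.27 FPKM in 10 heat glands and 4.54 FPKM in 4 control glands, and in libraries 1400 to 1500 they were 4.95 FPKM in 5 heat glands and 8.08 FPKM in 6 control glands. Limma called 0 of 8831 genes (0%) at day 40 and 0 of 9231 genes (0%) at day 42, with 416 and 242 genes at an unadjusted p under 0.05. A Wilcoxon rank-sum test called 0 genes on either of these days. At day 40 the groups were too small for that test to reach low p-values, so nothing is read from its count there.

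**Figure D3:**
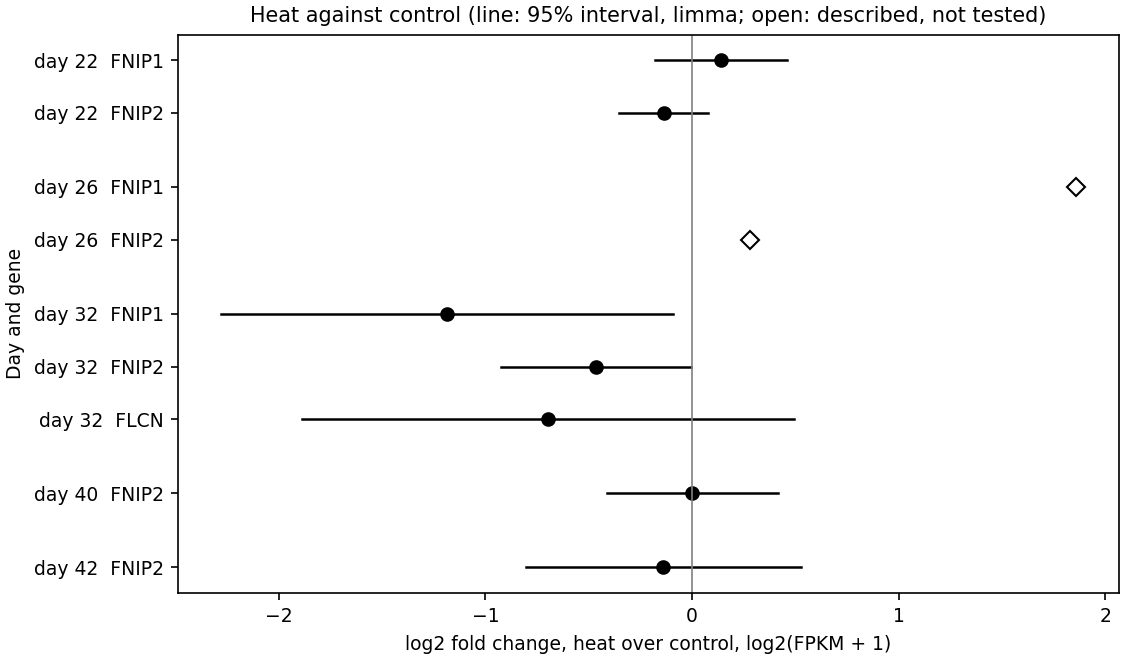
Log2 difference between heat and control on the log2(FPKM + 1) scale (horizontal axis) for each member and day (vertical axis), with 95% intervals from limma as lines and open symbols for the untested values of day 26. FNIP1 stood at 0.14 (day 22), 1.86 (day 26) and -1.19 (day 32).

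The heat effects of days 22, 32, 40 and 42 were also set against each other in pairs, each pair in a fit of its own with an interaction term. The FNIP1 difference at day 32 was lower than that at day 22 by 1.33 on the log2 scale (95% interval of the interaction -2.24 to -0.41), with an unadjusted p of 0.00592 in limma and an adjusted p of 0.559 over 8018 genes. It was therefore not called, and day 26 was left out of these fits. For FNIP2 the 6 interactions lay between -0.33 and 0.47, with adjusted p of 0.695 to 1.000, and none was called, beside 0% to 0.0118% of all genes (0.0111% for day 42 against day 32 and 0.0115% for day 42 against day 40).

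FNIP2 was the member that could be followed through all days in control glands. It averaged 7.78 ± 1.93 FPKM at day 21 (n = 15), 8.04 ± 2.09 at day 22 (n = 10), 5.59 ± 1.31 at day 26 (n = 6), 4.85 ± 1.00 at day 32 (n = 6), 6.80 ± 1.14 at day 40 (n = 5) and 6.66 ± 3.50 FPKM at day 42 (n = 10), each with its SD. Calls between days needed an adjusted p under 0.05 and a change of at least 2-fold, and 11.3% of 8026 genes met this for day 26 against day 22 0.835% for day 32 against day 26, 2.93% for day 40 against day 32, 28.8% for day 42 against day 40 and 33.0% of 8301 genes for day 42 against day 22. FNIP2 was not called in these 5 comparisons or in day 22 against day 21. Its lowest adjusted p was 0.0262 in limma, for day 26 against day 22, where the log2 difference was -0.45 (95% interval -0.79 to -0.12) against a median of -0.35 over all genes. The day 26 control libraries of this test also stand in the contrast on which FNIP1 was picked. For day 42 against day 22 the difference was -0.43 (95% interval -1.07 to 0.21, adjusted p = 0.252 in limma), and -0.16 without control library 1012. With each library rescaled to the same total it was -1.03 (adjusted p = 0.00354 in limma), past both limits. Control libraries summed to a median of 451971 FPKM at day 42 and 263433 FPKM at day 22, so this rescaling lowers genes of day 42 against day 22. The median over all genes after it is not given here. Rescaled to the median gene, FNIP2 was not called. The anterior lobe genes that separate day 42 from day 22 stood 9.22 higher at the median of their list on the log2 scale. FNIP1 was not called between day 22 and day 21 (log2 difference 0.04, 95% interval -0.29 to 0.38, adjusted p = 0.964 in limma), and without control library 1552 the difference was 0.18. Here 0.0643% of 7781 genes were called.

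From bird to bird, FNIP1 was compared with FNIP2 and with the other genes. After each library was centred on the mean of its own day and house, the correlation of FNIP1 with FNIP2 was 0.02 over the 61 libraries that list both. Correlations are given as descriptions over libraries that share their depth and dissection. Of 7103 genes, those whose pattern was most like FNIP1 were ZFYVE1, a lipid-binding FYVE protein of autophagosome formation sites (r = 0.65), GRK5, a kinase of G protein-coupled receptors (0.64), GPR137C, a membrane protein (0.63), IFNGR1, an interferon gamma receptor chain (0.61), and MITF, a factor of the TFEB family (0.60). Without libraries 1552 and 1305, which lay farthest out, these 5 values fell between 0.45 and 0.58. FNIP2 ran closest to VTA1, a factor of multivesicular body sorting (r = 0.87 over 98 libraries and 7338 genes), USP12, a deubiquitinase (0.87), and ETNK1, an ethanolamine kinase (0.86), and without libraries 1014 and 1012 the values were 0.80, 0.80 and 0.77. FLCN correlated at 0.24 with FNIP1 and at -0.05 with FNIP2 over the 12 libraries of day 32. Its closest patterns, LOC101747773 (0.97) and the kinase MAPK8 (0.95), dropped to 0.71 and 0.63 without libraries 1307 and 1276.

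Around the complex, the genes of its pathway are given at day 26 by their counts of calls and their levels, and nothing is read from the counts because FNIP1 was picked on this contrast. They stand beside the 0.584% of all genes that were called. The count was 0 of 5 listed genes for the Rag GTPases and Ragulator and 0 of 9 for GATOR, KICSTOR and the amino acid sensors. For mTORC1 and TSC it was 1 of 12, for AMPK and its upstream kinases 0 of 10, and for the TFEB family 0 of 2. Lysosomal and autophagy genes had 0 of 19 called, and the C9orf72 group of related proteins 0 of 2. For ubiquitin ligase parts and kinases listed as FNIP regulators the count was 0 of 8. The median log2 differences of these lists ran from -0.09 to 0.18, beside 0.06 over all genes. LAMTOR1, the Ragulator anchor on the lysosome, averaged 113 ± 15.5 FPKM in heat glands and 76.0 ± 10.4 FPKM in control glands, and RRAGC, which encodes RagC, averaged 13.2 ± 2.93 and 10.6 ± 1.98 FPKM in heat and control glands (SD, n = 5 and 6 here and below). TFEB averaged 13.8 ± 1.53 FPKM in heat glands and 14.3 ± 0.791 FPKM in control glands, and MITF averaged 6.85 ± 1.04 and 5.52 ± 0.875 FPKM. CSNK2A1, a catalytic subunit of casein kinase 2 that phosphorylates FNIP1 in human cells, averaged 42.1 ± 7.19 FPKM in heat glands and 28.3 ± 3.57 FPKM in control glands.

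The mTORC1 gene called at day 26 was MTOR, the kinase of the complex. It averaged 16.1 ± 5.75 FPKM in heat glands and 3.81 ± 3.28 FPKM in control glands, with a ratio of means of 4.23. The ranges of 11.1 to 25.3 and 1.06 to 10.2 FPKM did not overlap, beside 2.60% of all genes with all heat libraries above all control libraries. The HSP90 list, HSP90 with HSPA8 and cochaperones, had 3 of 5 genes called at day 26, all higher, beside 0.584% of all genes called in either direction. HSP90AA1, the heat-inducible cytosolic HSP90, averaged 1947 ± 454 FPKM in heat glands and 452 ± 192 FPKM in control glands, and HSPA8, the constitutive HSC70, averaged 1765 ± 967 and 384 ± 124 FPKM. Of 10 genes of the heat shock list 5 were called, all higher, beside the same share of all genes. These calls come from the contrast on which FNIP1 was picked. The number of genes called in it changed with the setting, as given below. Whether MTOR and the chaperone genes keep their calls in those settings was not examined. BAG3, an HSP70 cochaperone, averaged 459 ± 385 FPKM in heat glands and 41.1 ± 25.0 FPKM in control glands.

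**Figure D4:**
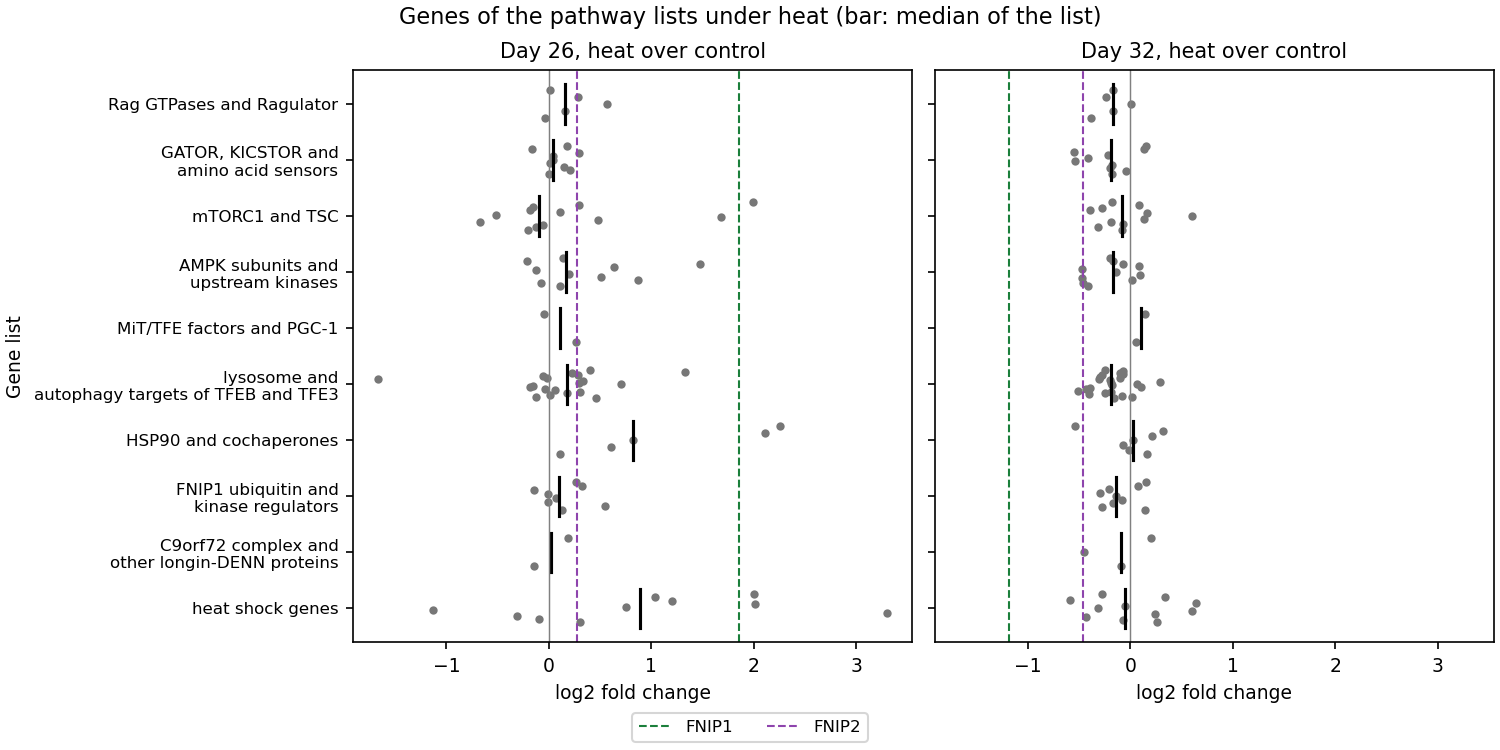
Log2 difference between heat and control (horizontal axes) of each tested gene in 10 lists (vertical axis) at day 26 and at day 32, with the median of each list as a bar and the values of FNIP1 and FNIP2 as dashed lines. At day 26 FNIP1 (1.86) lay beyond all genes of the Rag, GATOR, AMPK, TFEB family, lysosomal and ubiquitin lists. It was picked on this contrast, so that place is a description only. At day 32 FNIP1 lay below all genes shown.

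At day 22 chaperone genes rose while neither member was called, in a comparison that was not used to choose the members. Of the 5 genes of the HSP90 list 3 rose, beside 0.121% of all genes. HSP90AA1 averaged 1322 ± 440 FPKM in heat glands (SD, n = 13) and 729 ± 91.0 FPKM in control glands (SD, n = 10), a log2 difference of 0.80 (adjusted p = 0.0284 in limma). AHSA1, an activator of the HSP90 ATPase, averaged 106 ± 18.0 and 73.6 ± 10.8 FPKM in heat and control glands (log2 difference 0.51, adjusted p = 0.0323), and the remaining called gene was HSPA8, named after its values were seen (log2 difference 0.71, adjusted p = 0.0392). Of the 10 genes of the heat shock list BAG3 (log2 difference 0.92, adjusted p = 0.0392) and HSP90B1 (0.78, named after its values were seen) rose, and CIRBP, a cold-inducible RNA-binding protein, fell to 232 ± 29.4 FPKM in heat glands, against 343 ± 40.1 FPKM in control glands (adjusted p = 0.00177), beside 0.0121% of all genes lower. Without control library 1552 the adjusted p of HSP90AA1, AHSA1 and BAG3 was 0.0576, and with the range of library numbers in the fit it was 0.134. In both of these fits CIRBP was the 1 gene called, so HSPA8 and HSP90B1 lost their calls as well. None of the tested genes of the Rag, GATOR, mTORC1, AMPK, TFEB family, lysosomal, FNIP regulator and C9orf72 lists was called at day 22. MTOR averaged 10.1 ± 3.85 FPKM in heat glands and 10.2 ± 5.33 FPKM in control glands.

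Between control glands of days 42 and 22, 33.0% of all genes were called, genes of several pathway lists among them. No count of calls below is read as a result about the pathway. In the same fit FNIP2 was not called, and neither was it when rescaled to the median gene. It was called lower with each library rescaled to the same total, which lowers genes of day 42 as given above. The lists changed beside 12.8% of all genes higher and 20.2% lower, and with the change in anterior lobe and myelin genes given above. TFEB and MITF both fell, TFEB to 4.23 ± 1.44 FPKM at day 42, against 21.5 ± 4.17 FPKM at day 22 (log2 difference -2.13, adjusted p = 3.28e-10 in limma), and MITF to 2.41 ± 1.52 FPKM, against 9.40 ± 1.40 FPKM (SD, n = 10 each). PPARGC1A, the remaining tested gene of their list, was not called (log2 difference -0.46, adjusted p = 0.0655 in limma). Of 17 lysosomal and autophagy genes 7 fell and 1 rose, with a list median of -0.82 against -0.15 over all genes. CTSB, the protease cathepsin B, fell to 97.3 ± 22.9 FPKM at day 42, against 304 ± 75.0 FPKM at day 22, and GABARAPL1, an ATG8 protein of autophagosomes, to 33.8 ± 11.4 FPKM, against 140 ± 8.20 FPKM. Of 10 genes of mTORC1 and TSC 2 rose, among them DEPTOR, an inhibitor within the mTOR complexes, at 10.7 ± 5.52 FPKM at day 42 and 1.06 ± 0.373 FPKM at day 22. Of 11 AMPK genes 2 rose and 1 fell. These included the paralogous scaffolds of the upstream kinase LKB1, of which CAB39L rose to 36.1 ± 11.1 FPKM at day 42, against 9.93 ± 2.01 FPKM at day 22, and CAB39 fell to 21.2 ± 10.04 FPKM, against 72.8 ± 12.6 FPKM. Of 6 genes of the FNIP regulator list 2 fell. FEM1B, the ubiquitin ligase adaptor that recognises FNIP1 in mammalian cells, fell to 8.92 ± 2.83 FPKM at day 42, against 25.2 ± 6.72 FPKM at day 22, and FBXW11, an F-box protein, to 12.7 ± 4.93 FPKM, against 29.5 ± 6.29 FPKM. No gene was called among 4 of the Rag and Ragulator list, 8 of the GATOR list, 5 of the HSP90 list and 2 of the C9orf72 list. With the range of library numbers in the fit, the adjusted p of CAB39 was 0.113, that of FEM1B 0.104 and that of FBXW11 0.765, and these were no longer called. In the heat shock list, CRYAB, a small heat shock protein, was called in the fit without this covariate. It fell to 0.458 ± 0.511 FPKM at day 42, against 863 ± 170 FPKM at day 22. HSPD1 was also called in that fit, at 41.8 ± 12.6 FPKM against 86.85 ± 16.5 FPKM. No other tested gene of the heat shock list was called there.

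**Figure D5:**
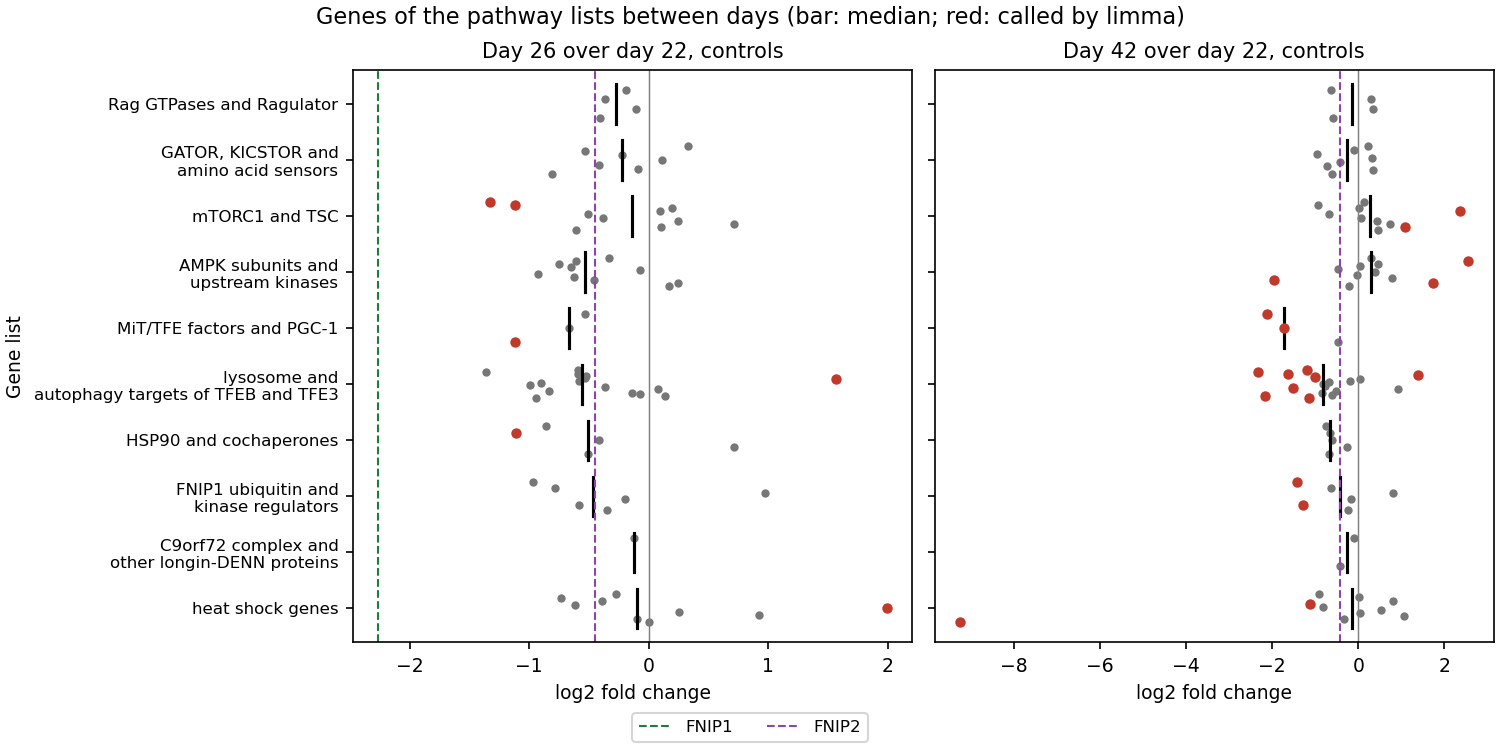
Log2 difference between control glands of day 26 and day 22 and of day 42 and day 22 (horizontal axes) for the tested genes of 10 lists (vertical axis), with called genes in red, the median of each list as a bar, and FNIP1 and FNIP2 as dashed lines (FNIP1 was not analysed at day 42). FNIP1 lay at -2.26 for day 26 against day 22, below all genes shown. This value was not tested, since it rests on the control libraries on which FNIP1 was picked.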

How the data were processed

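The authors aligned stranded RNA-seq reads to the galGal4 build with Bowtie and TopHat and deposited Cufflinks FPKM values, 1 table per day, and tool versions and any scaling between libraries are not given in the sources used here. Of 100 labelled samples 98 had a column, and 3 columns of the day 22 table matched no label and were not used. Tables were joined by gene symbol (18685 in any table, 9881 in all 6). Each library came from 1 bird, and p-values measure the spread between birds. The tables hold no reads per library, so counting errors were not estimated, and relative depth from the steps between low values ran from 0.321 to 1 of the deepest library of a day at days 21 to 40 and could not be read at day 42.

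FPKM were analysed as log2(FPKM + 1) with limma 3.58.1 in R 4.3.3 (two-sided, mean trend), in the compared groups only, among genes that averaged 1 FPKM or more. A call required p under 0.05 after Benjamini-Hochberg adjustment over all genes tested and, between days, a 2-fold change. The fit was tested on simulated data. Members and gene lists were chosen with earlier results of these data known. Named genes were the members, their neighbours, up to 2 genes per list with the smallest adjusted p (at day 26, the largest log2 difference), and the genes correlating best with each member, of which 1 is not reported here. Alternatives were a pseudocount of 0.1, no filter, rescaling to the median gene, TPM, the range of library numbers (4 ranges) as covariate, a Wilcoxon rank-sum test, no minimum fold change and leaving out single libraries; leaving out control libraries 1012 and 1552 was added after seeing the data.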

Additional observations from a re-analysis of the deposited data

Results flagged for a closer look

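Of 15 groups of 4 to 10 libraries in which a member was measured, 1 had an extreme library. FNIP2 in day 32 control glands was 2.92 FPKM in library 1314, while the other 5 control libraries lay between 4.81 and 5.60 FPKM, and the gap was flagged by Dixon's criterion. Chance flags about 1 in 20 groups. Without this library the log2 difference of FNIP2 between heat and control at day 32 was -0.58, against -0.46 with it.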

How the results depend on the processing

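Under a pseudocount of 0.1, no filter, rescaling to the median gene, the Wilcoxon test and TPM, the members kept their direction and their side of the threshold, except where given here. FNIP1 at day 26 was 2.20 with a pseudocount of 0.1, and between 1.80 and 1.92 when single libraries were left out. Differences near 0 changed sign. FNIP2 at day 40 was -0.0033 with a pseudocount of 0.1, -0.0575 with TPM, and between -0.1066 and 0.1258 without single libraries. FNIP2 between days 22 and 21 was -0.0354 with the range of library numbers as covariate and -0.0047 without control library 1552. For FNIP2 between days 42 and 40 the values without single libraries ran from -0.3128 to 0.0358, the highest without control library 1012. Without that library FNIP2 between days 42 and 22 was -0.16. The difference of FNIP2 heat effects between days 42 and 22, -0.0019, was 0.0989 with a pseudocount of 0.1, 0.0115 rescaled to the median gene, 0.0593 with TPM and 0.0714 with the covariate. FNIP2 was called between days 26 and 22 with no minimum fold change (-0.4506) and between days 42 and 22 with TPM (-1.0303). The cause of these shifts was not tested.

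Counts of calls depended on the setting more than the members did. At day 22 the 11 calls became 1 without the filter or with the covariate, 5 rescaled, 7 with TPM or the Wilcoxon test, and 1 without control library 1552. At day 26 the 53 calls became 28 rescaled, 23 with TPM, 6 with the covariate, 0 with the Wilcoxon test, and 17 to 45 without single libraries. In the small groups of days 26, 32 and 40 the Wilcoxon test calls a gene only if very many genes separate completely. Its counts and its results for the members there are therefore no check on the fit. Between days 26 and 22 the 904 calls became 1429 with a pseudocount of 0.1, and with no minimum fold change 4030, against 4404 in place of 2743 between days 42 and 22. Between days 40 and 32 the 251 calls became 433 with TPM and 25 with the covariate. Between days 22 and 21 the 5 calls became 2 without the filter, 9 with TPM, 18 with the covariate, 1 with the Wilcoxon test, and 20 without control library 1552. With no minimum fold change the counts were 20 there, 281 in place of 74 between days 32 and 26, and 1098 between days 40 and 32. Of the alternative values of called list genes 109 kept the call, 18 lost it and none changed direction. The covariate could not be fitted for heat at day 32 and for controls of days 32 against 26 and 42 against 40.

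No paired analysis was possible because library numbers are unique and no groups share one. The tables hold FPKM without reads, so the counting error of a member was not estimated.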

Other observations

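MTOR, the gene of the mTORC1 list called at day 26, was measured on all days. In control glands it averaged 8.86 ± 3.70 FPKM at day 21 (n = 15), 10.2 ± 5.33 at day 22 (n = 10), 3.81 ± 3.28 at day 26 (n = 6), 9.62 ± 4.43 at day 32 (n = 6), 9.36 ± 3.61 at day 40 (n = 5) and 13.2 ± 9.12 FPKM at day 42 (n = 10), each with its SD. The day 26 control mean was the lowest of these control means. MTOR is named because it was called in the contrast on which FNIP1 was picked, so nothing is read from this likeness to FNIP1. Between day 26 and day 22 control glands the median log2 difference over all genes was -0.35. At day 32 MTOR had 3.8 to 28.4 FPKM in heat glands and 4.22 to 15.4 FPKM in control glands, and these ranges overlapped.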
